A study of Saccharomyces cerevisiae with 8 samples.

Results

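Budding yeast (Saccharomyces cerevisiae) that lacks XRN1 was compared with yeast that has it, in cells whose mRNA capping enzyme Ceg1 had been taken out of the nucleus with rapamycin. The comparison used 4 of the 7 libraries analysed, 2 of ceg1-AA/xrn1D and 2 of ceg1-AA, all treated with rapamycin at 1 µg/mL for 45 min. It covers nuclear open reading frames (ORFs), 6572 of the 6600 in the files, of which 5859 had enough counts to be tested. Total RNA was sequenced from cultures in YPD at 30 °C, and the other groups, 2 ceg1-AA libraries and 1 ceg1-AA/xrn1D library in DMSO, serve here as the untreated reference. Both strains are MATalpha and carry CEG1-FRB::HIS, tor1-1, RPL13AxFKB12::TRP and fpr1::NAT, so the controls share every allele of the depletion system. The ceg1-AA/xrn1D strain also carries a KAN disruption, which the labels write as KAN::XRN1 for replicate 1 and as KAN::XRN3 for replicate 2. The labels name 8 samples, and replicate 2 of ceg1-AA/xrn1D in DMSO was not analysed here. No library of a strain without the FRB tag was among those analysed.

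Ceg1 adds the guanosine cap to the 5′ end of new RNA polymerase II transcripts, and the cap shields an mRNA from 5′ to 3′ exonucleases and recruits the translation machinery. Xrn1 is the main cytoplasmic 5′ to 3′ exonuclease: it degrades mRNAs once the decapping enzyme has removed the cap, and it has also been linked in yeast to the control of transcription. In the anchor-away method rapamycin bridges an FRB-tagged nuclear protein and an FKBP12-tagged ribosomal protein, which carries the tagged protein out of the nucleus, while tor1-1 and the loss of Fpr1 keep rapamycin from acting on the TOR kinase. The comparison therefore asks how mRNA levels differ with and without Xrn1 when capping is withdrawn.

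The promoter sequences to which the results below refer are given first, 300 bases that end 51 bases before the start codon, from RefSeq assembly R64, 5′ to 3′ on the coding strand. HSP12 and AHP1 stand for the rises of stress and peroxide genes, with the stress response element AGGGG (or CCCCT) in capitals. DRS1 and RRP14 stand for the fall of ribosome assembly genes, with the PAC element GATGAG and the RRPE element AAAAATTTT, on either strand, in capitals. PRE8 stands for the proteasome, with the PACE element GGTGGCAAA in capitals, and SSA1 for the Hsp70 chaperones, with a heat shock element in capitals, the letters GAA, TTC and GAA with 2 bases of any kind between them. They lie at chrVI:106906-107205 (plus strand), chrXII:368431-368730 (plus strand), chrXII:131379-131678 (plus strand), chrXI:282380-282679 (minus strand), chrXIII:86790-87089 (minus strand) and chrI:141482-141781 (minus strand).
HSP12: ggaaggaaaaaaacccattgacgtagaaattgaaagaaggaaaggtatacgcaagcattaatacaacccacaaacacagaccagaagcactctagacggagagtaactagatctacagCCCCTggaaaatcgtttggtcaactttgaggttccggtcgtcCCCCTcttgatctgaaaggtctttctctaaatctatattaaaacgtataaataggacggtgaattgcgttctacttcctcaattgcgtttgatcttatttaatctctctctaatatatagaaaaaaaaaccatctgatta
AHP1: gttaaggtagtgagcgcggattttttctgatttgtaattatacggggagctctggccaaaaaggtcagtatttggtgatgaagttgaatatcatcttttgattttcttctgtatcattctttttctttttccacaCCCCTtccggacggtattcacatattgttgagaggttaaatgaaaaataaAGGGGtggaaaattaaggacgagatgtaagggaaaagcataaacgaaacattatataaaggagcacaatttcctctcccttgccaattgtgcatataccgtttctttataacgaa
DRS1: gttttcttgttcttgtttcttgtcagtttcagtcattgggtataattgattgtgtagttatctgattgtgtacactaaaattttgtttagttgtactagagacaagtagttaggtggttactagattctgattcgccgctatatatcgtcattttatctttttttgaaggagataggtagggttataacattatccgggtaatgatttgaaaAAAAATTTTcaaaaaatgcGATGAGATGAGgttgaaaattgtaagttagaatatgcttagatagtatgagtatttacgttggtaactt
RRP14: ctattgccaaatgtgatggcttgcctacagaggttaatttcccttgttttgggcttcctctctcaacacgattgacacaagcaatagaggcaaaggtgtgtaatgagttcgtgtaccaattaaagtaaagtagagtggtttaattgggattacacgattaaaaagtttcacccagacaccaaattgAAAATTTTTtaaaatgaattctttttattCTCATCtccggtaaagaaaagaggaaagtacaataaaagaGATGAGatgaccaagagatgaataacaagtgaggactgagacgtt
PRE8: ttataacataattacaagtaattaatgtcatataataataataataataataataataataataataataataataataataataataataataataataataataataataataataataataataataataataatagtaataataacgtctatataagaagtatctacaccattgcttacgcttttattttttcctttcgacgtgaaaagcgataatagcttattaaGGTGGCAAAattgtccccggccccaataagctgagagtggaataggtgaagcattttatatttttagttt
SSA1: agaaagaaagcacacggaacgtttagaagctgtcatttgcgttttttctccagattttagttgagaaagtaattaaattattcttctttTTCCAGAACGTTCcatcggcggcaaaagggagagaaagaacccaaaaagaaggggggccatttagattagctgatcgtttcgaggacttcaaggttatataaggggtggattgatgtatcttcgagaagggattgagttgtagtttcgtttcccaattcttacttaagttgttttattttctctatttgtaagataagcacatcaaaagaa
The elements of HSP12 begin 232 and 190 bases before the start codon, and those of AHP1 begin 215 and 165 bases before it. DRS1 has an RRPE element at 138 bases and overlapping PAC elements at 119 and 114 bases. RRP14 has an RRPE element at 164 bases and PAC elements at 135 and 95 bases. The PACE element of PRE8 begins 120 bases before the start codon, and the heat shock element of SSA1 begins 261 bases before it.

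XRN1 itself (YGL173C), the disrupted gene, had 384 and 338 counts in the ceg1-AA rapamycin libraries and 0 in both ceg1-AA/xrn1D rapamycin libraries, whichever way the genotype was written. With a floor of 3 counts per library, up to 0.841 CPM (counts scaled to the size of each library with TMM factors, the unit of all levels below), the transcript was at least 417-fold lower. FPR1, which the genotype disrupts, had 0 counts in all 7 libraries, and the a-factor gene MFA1 likewise, while STE3, the receptor gene of alpha cells, was at 157 and 157 CPM in ceg1-AA and 321 and 251 CPM in ceg1-AA/xrn1D. MATALPHA1 and MATALPHA2, the genes of the labelled mating type, also had 0 counts in all 7 libraries. The a-specific gene STE2 was higher in ceg1-AA/xrn1D under rapamycin. Counts of 0 for a mating gene therefore do not settle the mating type here. CEG1 was at 62.9 and 65.6 CPM in ceg1-AA and 51.0 and 52.6 CPM in ceg1-AA/xrn1D, a log2 difference of -0.31 ± 0.17 (SE) that did not pass the test (edgeR adjusted p = 0.161), and anchor-away moves the protein, not its transcript. Total counts were 962326 and 935651 in the ceg1-AA rapamycin libraries and 2990340 and 3385761 in the ceg1-AA/xrn1D ones, so the sums differ by 3.36 times and the ceg1-AA values are the less precise. Mitochondrially encoded ORFs took 3.37% and 2.47% of the counts in the ceg1-AA rapamycin libraries and 0.281% and 0.250% in the ceg1-AA/xrn1D ones. In DMSO they took 1.41% and 1.13% in ceg1-AA and 0.199% in ceg1-AA/xrn1D. All 4 ceg1-AA libraries held 10 or more counts of 20 mitochondrial ORFs, and for 16 of these no ceg1-AA/xrn1D library exceeded the floor of 3 counts. The loss of these transcripts and the loss of XRN1 separate the libraries in the same way and cannot be told apart. In RNA from whole cultures, fewer cells of a kind and less RNA per cell cannot be told apart either.

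Loss of XRN1 under rapamycin went with changes over a large share of the genome, in both directions. Most ribosome assembly genes fell, and many genes of stress defence, protein folding, the proteasome and the mitochondrial ribosome rose. In all, 1244 of 5859 nuclear ORFs (21.2%) had higher values in ceg1-AA/xrn1D and 1304 (22.3%) had lower ones, with 0.05 as the limit on the adjusted p of edgeR's quasi-likelihood test, the threshold for "rose" and "fell" below, and 3003 had an unadjusted p under 0.05. The median over all nuclear ORFs was 0.02 on the log2 scale, every called ORF kept 1 sign across the 4 possible pairs of libraries, and 495 of the rises (8.45% of all tested) and 524 of the falls (8.94%) were at least 2-fold. At least 4-fold differences were called for 63 rises and 54 falls. The groups did not overlap for 2259 higher ORFs (38.6%) and 2143 lower ORFs (36.6%), and in every pair a difference of at least 2-fold was found for 304 higher (5.19%) and 308 lower (5.26%) ORFs. Values are relative within a library, and the deposited TPM values, tested with limma, had a median of 0.30 and called 1753 ORFs higher and 662 lower, 72.6% and 27.4% of the calls. With total counts alone the split was 1476 to 1115. Leaving out a library lowered the counts, to 778 and 945 without ceg1-AA rapamycin replicate 1 and to 721 and 856 without its replicate 2. Without ceg1-AA/xrn1D rapamycin replicate 1 they were 806 and 882, and without its replicate 2 they were 837 and 951. The labels do not say that replicates came from separate cultures, so p-values measure the spread between these samples only. Replicates differed at least 2-fold for 166 ORFs in ceg1-AA (2.83%) and 38 in ceg1-AA/xrn1D (0.649%).

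Among ORFs with a mean of at least 50 counts, the 10 largest rises included genes of stress, redox, cell wall and mitochondrial proteins and the decay factor gene DHH1. HSP12, a membrane-protecting stress protein, was at 25.7 and 39.8 CPM in ceg1-AA and 675 and 269 CPM in ceg1-AA/xrn1D, a log2 fold change of 3.85 ± 0.63 (SE) (edgeR adjusted p = 0.000792). Both ceg1-AA/xrn1D libraries were above both ceg1-AA libraries, as the rule for naming these genes requires (1 sign in all pairs). The ceg1-AA/xrn1D libraries differed from each other more than 2-fold, and without their replicate 1 the log2 fold change was 3.04. NCE103, the carbonic anhydrase, was at 54.3 and 48.7 CPM in ceg1-AA and 695 and 241 CPM in ceg1-AA/xrn1D and showed the same spread within ceg1-AA/xrn1D (log2 fold change 3.18 ± 0.44 SE, edgeR adjusted p = 0.000278, and 2.22 without that replicate). AHP1, a thiol peroxidase, was at 18.1 and 15.9 CPM in ceg1-AA and 161 and 135 CPM in ceg1-AA/xrn1D and rose by 3.11 ± 0.21 (SE) on the log2 scale (edgeR adjusted p = 4.7e-06). The replicates of AHP1 were close in both strains. CYC7, the isoform of cytochrome c that is made at low oxygen, was at 6.67 and 12.9 CPM in ceg1-AA and 91.4 and 75.6 CPM in ceg1-AA/xrn1D (log2 fold change 3.09 ± 0.38 SE), and RTC3, a stress-induced protein, was at 18.1 and 8.94 CPM in ceg1-AA and 127 and 105 CPM in ceg1-AA/xrn1D (log2 fold change 3.09 ± 0.56 SE, and 3.69 without ceg1-AA replicate 1). HSP10, the mitochondrial co-chaperonin, was at 25.7 and 22.9 CPM in ceg1-AA and 207 and 196 CPM in ceg1-AA/xrn1D, a log2 fold change of 3.05 ± 0.20 (SE) (edgeR adjusted p = 3.39e-06). The cell wall proteins PIR1 and CWP1 rose by 2.98 ± 0.20 (SE) and 3.04 ± 0.34 (SE), PIR1 from 115 and 87.5 CPM to 851 and 756 CPM. YAL004W, which the reference does not annotate, rose by 3.54 ± 0.25 (SE) from 10.5 and 7.95 CPM to 114 and 103 CPM. Its systematic name places it next to SSA1 (YAL005C), which also rose, and whether the 2 share reads was not tested.

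The 10 largest falls by the same rule included a cell wall gene, a zinc transporter gene, an mRNA export gene and assembly factor genes. CRR1, a putative cell wall glycosylase, was at 84.8 and 116 CPM in ceg1-AA and 6.17 and 9.78 CPM in ceg1-AA/xrn1D and changed by -3.64 ± 0.26 (SE) on the log2 scale (edgeR adjusted p = 6.25e-06). ZRT1, the high-affinity zinc transporter, was at 349 and 504 CPM in ceg1-AA and 63.4 and 70.5 CPM in ceg1-AA/xrn1D (log2 fold change -2.67 ± 0.24 SE, edgeR adjusted p = 2.66e-05). GLE1, an mRNA export factor of the nuclear pore, was at 322 and 335 CPM in ceg1-AA and 59.7 and 58.6 CPM in ceg1-AA/xrn1D (log2 fold change -2.47 ± 0.14 SE, edgeR adjusted p = 8.68e-07). For all 3 genes every ceg1-AA/xrn1D library lay below every ceg1-AA library, as the naming rule requires, and GLE1 had the tightest replicates of the 3. YLR154W-E, which is not in the reference, was at 928 and 227 CPM in ceg1-AA and 37.3 and 33.8 CPM in ceg1-AA/xrn1D (log2 fold change -4.02 ± 0.51 SE). Its ceg1-AA replicates lay far apart, and the value was -2.67 without replicate 1 and -4.71 without replicate 2. YGL088W changed by -3.19 ± 0.23 (SE), and it overlaps the small nucleolar RNA gene SNR10 on the same strand, whose reads could have been counted with it. The other 5 were the assembly factor genes FYV7 (-2.34 ± 0.18 SE), BCD1 (-2.31 ± 0.25 SE), DRS1 and BUD20 (-2.21 ± 0.21 SE), and YCR087W (-2.28 ± 0.26 SE), which the reference does not annotate. BCD1 is needed for the assembly of box C/D snoRNAs, and BUD20 for export of the large ribosomal subunit.

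**Figure D1:**
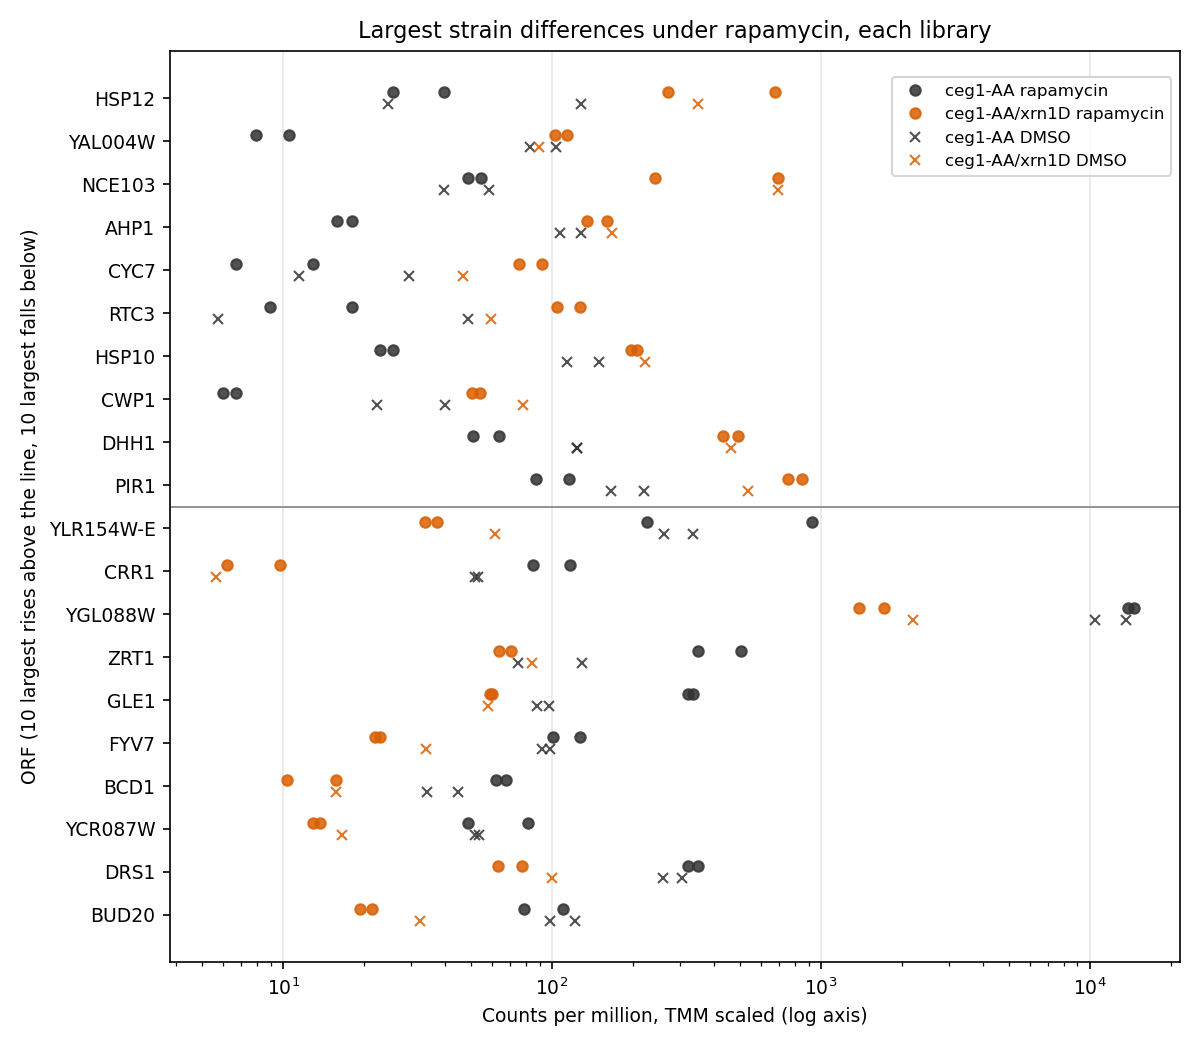
TMM-scaled CPM (log axis) of the ORFs with the 10 largest rises and the 10 largest falls, for 2 ceg1-AA rapamycin, 2 ceg1-AA/xrn1D rapamycin, 2 ceg1-AA DMSO and 1 ceg1-AA/xrn1D DMSO, each point 1 library. The rule that named the 20 genes asks for 1 sign in all pairs of rapamycin libraries, so the strains cannot overlap there. HSP12 is at 25.7 and 39.8 CPM in ceg1-AA and 675 and 269 CPM in ceg1-AA/xrn1D.

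Ribosome assembly genes fell together. Of 50 tested genes of the small-subunit processome, which cuts and folds the precursor of 18S rRNA, 41 fell and 0 rose, with a median of -1.15 on the log2 scale against 0.02 for all nuclear ORFs. Of 63 factors that assemble the 60S subunit, 57 fell and 1 rose (median -1.12). The share of nuclear counts that the processome genes took was 1.59% and 1.63% in ceg1-AA and 0.76% and 0.87% in ceg1-AA/xrn1D, and the share of the 60S factors was 1.77% in each ceg1-AA library against 0.80% and 0.91%. DRS1, a helicase of 60S assembly, was at 320.0 and 348 CPM in ceg1-AA and 62.8 and 77.1 CPM in ceg1-AA/xrn1D (log2 fold change -2.25 ± 0.16 SE, edgeR adjusted p = 6.25e-06). RRP14, which takes part in both subunits, was at 293 and 300.1 CPM in ceg1-AA and 70.7 and 64.2 CPM in ceg1-AA/xrn1D (log2 fold change -2.14 ± 0.14 SE, edgeR adjusted p = 3.39e-06). The 2 groups were well apart for both genes. Among processome genes with a mean of at least 50 counts, UTP25 (-1.90 ± 0.16 SE), the GTPase gene BMS1 (-1.69 ± 0.15 SE) and BFR2 (-1.56 ± 0.16 SE) had the largest falls. REI1, a factor of cytoplasmic 60S maturation, changed by -2.13 ± 0.15 (SE), and the annotation places SLM6 over it on the opposite strand. The exception in the 60S list was TIF6, the anti-association factor of the large subunit, at 89.5 and 90.4 CPM in ceg1-AA and 194 and 192 CPM in ceg1-AA/xrn1D (log2 fold change 1.10 ± 0.15 SE, edgeR adjusted p = 0.000278). ROK1, another helicase of rRNA processing and a neighbour of XRN1 on chromosome VII, changed by -1.36 ± 0.14 (SE). Of the 6 tested neighbours of XRN1, ROK1 and SPO74, named after their values were seen, fell and none rose. SPO74 (-2.27 ± 0.57 SE) no longer passed at -2.14 with ceg1-AA rapamycin replicate 1 left out or at -1.93 with ceg1-AA/xrn1D rapamycin replicate 2 left out.

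Most genes of the polymerases that make rRNA and tRNA also fell. Of 17 tested genes of RNA polymerase I and its initiation factors, 12 fell and 0 rose (median -0.69), and of 11 of RNA polymerase III, 7 fell and 1 rose (median -0.56). For RNA polymerase III the falls numbered 4 with ceg1-AA rapamycin replicate 2 left out, the median was -0.91 with ceg1-AA rapamycin replicate 1 left out, and the rise was lost when any 1 of the 4 rapamycin libraries was left out and in DESeq2. RPC82, a subunit of RNA polymerase III, was at 149 and 134 CPM in ceg1-AA and 25.5 and 37.3 CPM in ceg1-AA/xrn1D, a log2 fold change of -2.17 ± 0.20 (SE) (edgeR adjusted p = 2.94e-05). RPC37 and RPC53, which form its termination module, changed by -1.95 ± 0.19 (SE) and -1.79 ± 0.19 (SE). In the RNA polymerase I list, the initiation factor gene RRN11 changed by -1.74 ± 0.17 (SE), the subunit gene RPA34 by -1.60 ± 0.15 (SE) and the initiation factor gene RRN9 by -1.29 ± 0.15 (SE). Of 12 genes of RNA polymerase II, 5 fell (41.7%, against 22.3% of all nuclear ORFs) and 0 rose (against 21.2%), with a median of -0.27. The falls numbered 3 with ceg1-AA rapamycin replicate 1 or ceg1-AA/xrn1D rapamycin replicate 1 left out, and the median was -0.45 with ceg1-AA/xrn1D rapamycin replicate 1 left out. RPB4 changed by -1.14 ± 0.15 (SE), from 226 and 280.2 CPM to 122 and 108 CPM, and RPB5 by -0.97 ± 0.16 (SE).

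**Figure D2:**
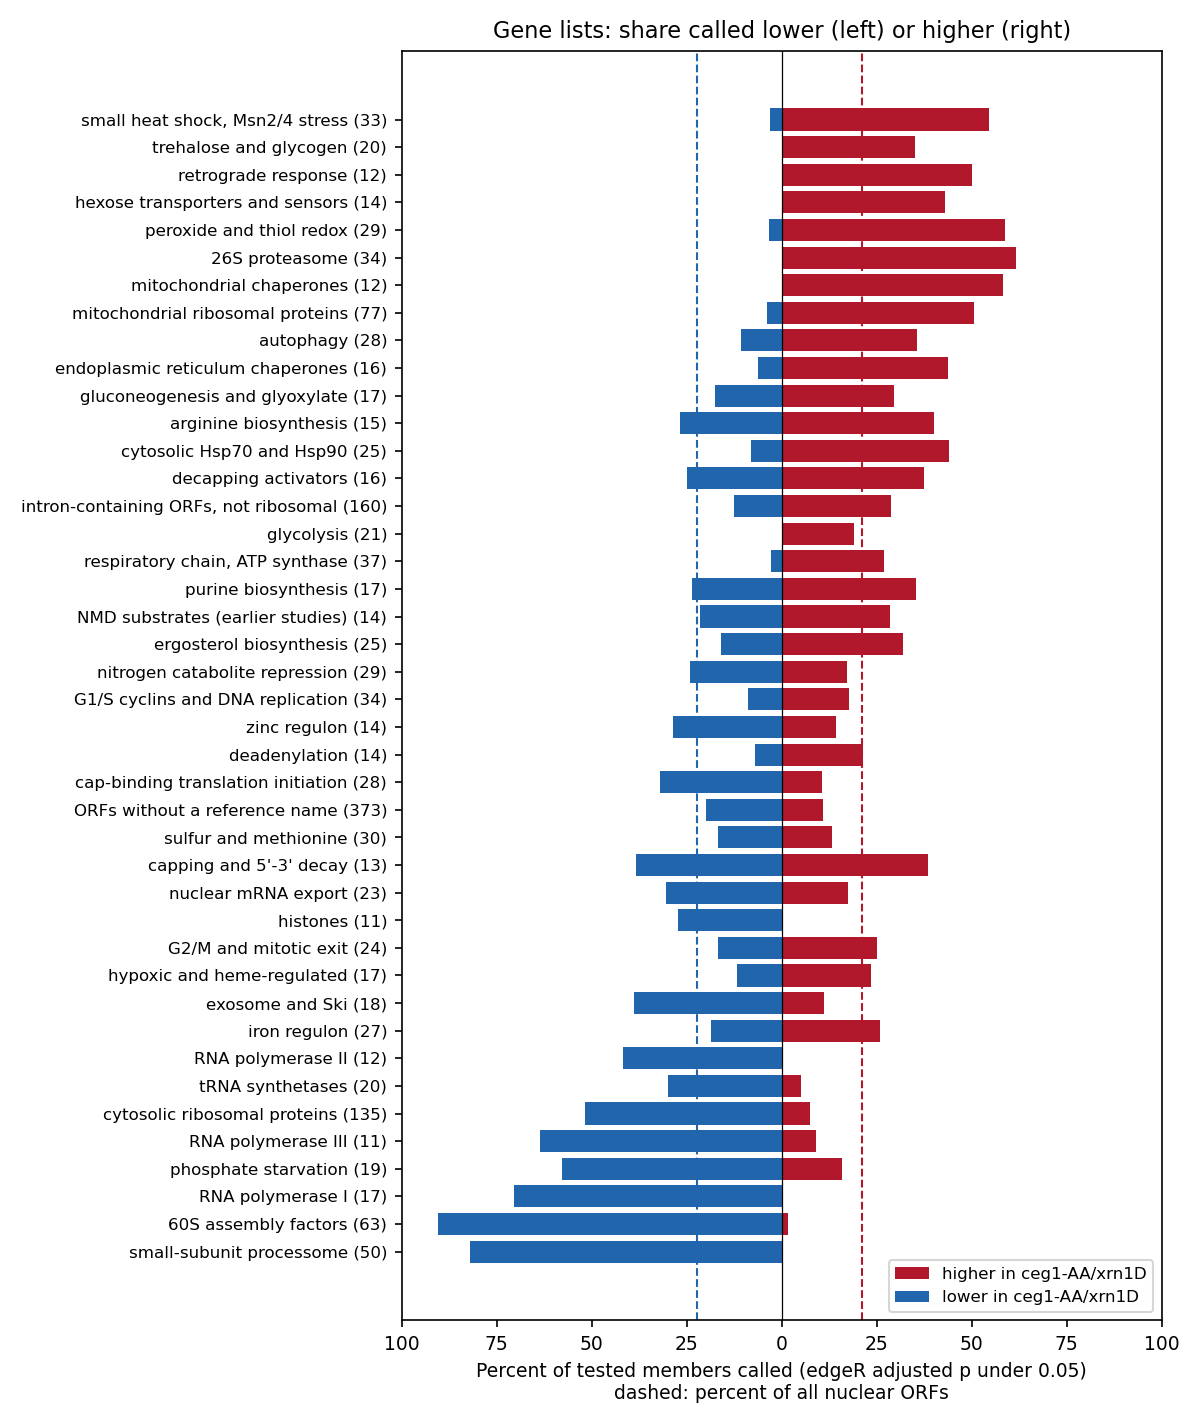
Percent of tested members called lower (left, blue) or higher (right, red) in ceg1-AA/xrn1D under rapamycin for each gene list, ordered by median log2 fold change with the number tested in brackets; dashed lines mark the percent of all nuclear ORFs called, 22.3% lower and 21.2% higher. The processome and 60S lists at the bottom are almost wholly blue, with 41 of 50 and 57 of 63 genes lower, and the stress list at the top has 18 of 33 higher.

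Many cytosolic ribosomal protein genes fell, and their duplicated copies often differed. Of 135 tested genes, 70 fell and 10 rose (median -0.52), and their share of nuclear counts was 12.9% and 13.6% in ceg1-AA and 8.12% and 9.55% in ceg1-AA/xrn1D. The rises numbered 4 with ceg1-AA rapamycin replicate 1 left out, 5 with ceg1-AA rapamycin replicate 2 left out, and 6 with ceg1-AA/xrn1D rapamycin replicate 2 left out. RPS28A was at 1047 and 1103 CPM in ceg1-AA and 206 and 278 CPM in ceg1-AA/xrn1D (-2.15 ± 0.19 SE, edgeR adjusted p = 2.29e-05), while its copy RPS28B, named after its values were seen, was at -0.33 ± 0.19 (SE) on the log2 scale and did not pass. RPL43A was at 1746 and 2059 CPM in ceg1-AA and 436 and 496 CPM in ceg1-AA/xrn1D (-2.03 ± 0.17 SE), and RPS21A changed by -2.06 ± 0.16 (SE). Against this direction, RPS14B was at 70.5 and 56.6 CPM in ceg1-AA and 156 and 232 CPM in ceg1-AA/xrn1D, a log2 fold change of 1.61 ± 0.22 (SE) (edgeR adjusted p = 0.000248), RPL9B was at 151 and 154 CPM in ceg1-AA and 344 and 312 CPM in ceg1-AA/xrn1D (1.10 ± 0.17 SE), and RPS22B, which overlaps the snoRNA gene SNR44 on the same strand, changed by 1.08 ± 0.22 (SE).

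Over the 58 pairs in which both copies were tested, both fell in 13 and 1 fell while the other did not pass in 25. In 5 pairs the copies were called in opposite directions, in 5 pairs 1 copy rose and the other did not pass, and in 10 pairs neither passed. The copies lay on opposite sides of 0 in 20 pairs and differed more than 2-fold in their fold changes in 22. Among the opposite pairs, named after their values were seen, were RPL9, RPS22, RPS27 and RPL36. RPL9A changed by -1.26 ± 0.19 (SE) and RPL9B by 1.10 ± 0.17 (SE), and RPS22A changed by -1.09 ± 0.19 (SE) and RPS22B by 1.08 ± 0.22 (SE). These held without any 1 of the rapamycin libraries, while a call in the RPS27 and in the RPL36 pair did not. RPS27A was at 0.75 without ceg1-AA replicate 2 and RPS27B at -0.58 without it and at -0.48 without ceg1-AA/xrn1D replicate 1. RPL36A ran from 0.36 to 0.53, not past the threshold, with ceg1-AA replicate 1 or 2 or ceg1-AA/xrn1D replicate 2 left out. In each of these pairs the copy that rose was the less abundant in the ceg1-AA DMSO libraries, on CPM per kilobase of coding sequence: RPL9B was at 577 against 5533, and RPS22B at 243 against 5849.9. Over all 58 pairs the less abundant copy had the higher fold change in 43. The copies are nearly identical in sequence, and the counting program and its treatment of reads that match both are not given in the sources used here, so each copy's count is uncertain.

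**Figure D3:**
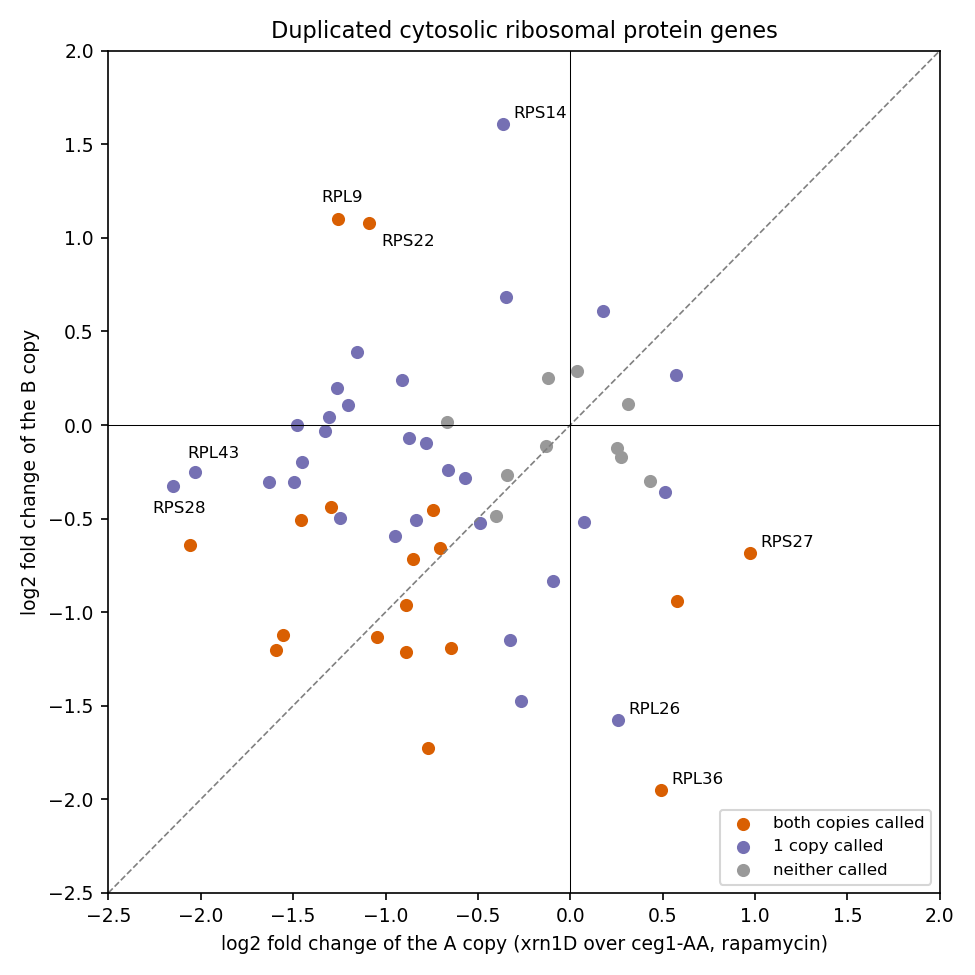
Log2 fold change under rapamycin of the A copy (horizontal) and the B copy (vertical) of 58 duplicated ribosomal protein genes, 1 point per pair, coloured by how many copies were called, with the dashed line at equal values. In 20 pairs the copies have opposite signs, and RPS14 lies far above the line with its B copy at 1.61.

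Many genes of the general stress response rose. Of 33 tested genes of the small heat shock and Msn2/Msn4 list, 18 rose and 1 fell (median 1.49), the highest median of the lists examined. The number that rose was 11 and 10 without ceg1-AA rapamycin replicates 1 and 2, and 10 without ceg1-AA/xrn1D rapamycin replicate 1, where the median was 0.99. The fall was lost when any 1 of the 4 was left out. After HSP12 the largest rises among genes with a mean of at least 50 counts were in GRE3, an aldehyde reductase, at 56.2 and 65.6 CPM in ceg1-AA and 369.7 and 313 CPM in ceg1-AA/xrn1D (2.49 ± 0.29 SE, edgeR adjusted p = 0.000101), and in ALD3, a stress-induced aldehyde dehydrogenase, at 30.5 and 20.9 CPM in ceg1-AA and 166 and 122 CPM in ceg1-AA/xrn1D (2.48 ± 0.37 SE). Neither gene overlapped between the strains, as the naming rule requires. HSP104, the disaggregase with the highest mean count of the list, was at 599.9 and 732 CPM in ceg1-AA and 1048 and 1024 CPM in ceg1-AA/xrn1D and did not pass (0.64 ± 0.36 SE, edgeR adjusted p = 0.171). In the list for trehalose and glycogen, the stress-protectant sugar and the storage carbohydrate, 7 of 20 rose and 0 fell (median 0.82), but the rises numbered 2 with ceg1-AA rapamycin replicate 1 or 2 left out and 3 with ceg1-AA/xrn1D rapamycin replicate 1 or 2 left out. UGP1, which makes the UDP-glucose that both pathways use, was at 111 and 118 CPM in ceg1-AA and 312 and 255 CPM in ceg1-AA/xrn1D (1.30 ± 0.27 SE), and PIG1, a phosphatase regulator, rose by 1.38 ± 0.24 (SE). TSL1, a trehalose synthase subunit, was at 309 and 436 CPM in ceg1-AA and 739 and 589 CPM in ceg1-AA/xrn1D and did not pass (0.83 ± 0.49 SE, edgeR adjusted p = 0.195). The stress genes were also uneven in DMSO, where HSP12 was at 24.6 and 128 CPM in ceg1-AA and 348 CPM in ceg1-AA/xrn1D, and the part of that spread in these calls was not tested.

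Many antioxidant genes rose as well. Of 29 tested genes of peroxide and thiol redox, 17 rose and 1 fell (median 0.67), and the fall was lost with ceg1-AA rapamycin replicate 2 or ceg1-AA/xrn1D rapamycin replicate 2 left out. Beside AHP1, CTT1, the cytosolic catalase, was at 67.6 and 53.7 CPM in ceg1-AA and 314 and 200.3 CPM in ceg1-AA/xrn1D (2.08 ± 0.27 SE, edgeR adjusted p = 0.000185), and TRX3, the mitochondrial thioredoxin, was at 26.7 and 19.9 CPM in ceg1-AA and 90.6 and 76.9 CPM in ceg1-AA/xrn1D (1.84 ± 0.24 SE). SOD1, the cytosolic superoxide dismutase, named after its values were seen, was at 113 and 108 CPM in ceg1-AA and 230.0 and 239.6 CPM in ceg1-AA/xrn1D and rose by 1.08 ± 0.17 (SE).

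Chaperones of the cytosol, the mitochondrion and the endoplasmic reticulum (ER) rose in part. In the cytosolic Hsp70 and Hsp90 list 11 of 25 rose and 2 fell (median 0.35), and its share of nuclear counts was 0.70% and 0.69% in ceg1-AA and 1.22% and 1.31% in ceg1-AA/xrn1D. The median was 0.16 with ceg1-AA rapamycin replicate 2 left out and 0.09 with ceg1-AA/xrn1D rapamycin replicate 2 left out, and 1 gene fell, in place of 2, when any 1 of the 4 rapamycin libraries was left out. SSA1, an Hsp70, was at 106 and 130.2 CPM in ceg1-AA and 892 and 844 CPM in ceg1-AA/xrn1D, a log2 fold change of 2.88 ± 0.23 (SE) (edgeR adjusted p = 1.28e-05), and its near copy SSA2 was at 203 and 184 CPM in ceg1-AA and 984 and 1236 CPM in ceg1-AA/xrn1D (2.52 ± 0.19 SE). The 2 genes are near-identical over long stretches and may share reads, so their split is uncertain. SSE2, an Hsp110, was at 38.1 and 43.7 CPM in ceg1-AA and 208 and 154 CPM in ceg1-AA/xrn1D (2.14 ± 0.30 SE). The Hsp90 genes HSP82 and HSC82, named after their values were seen, rose by 1.66 ± 0.18 (SE) and 1.54 ± 0.17 (SE). Of 12 mitochondrial chaperone genes 7 rose and 0 fell (median 0.60), led by HSP10, HSP60 at 102 and 104 CPM in ceg1-AA and 434 and 432 CPM in ceg1-AA/xrn1D (2.07 ± 0.16 SE) and HSP78 at 143 and 187 CPM in ceg1-AA and 696 and 668 CPM in ceg1-AA/xrn1D (2.05 ± 0.27 SE). HSP10 and HSP60 form the chaperonin together. With ceg1-AA rapamycin replicate 1 left out 1 gene of this list fell. In the ER list 7 of 16 rose and 1 fell (median 0.44), and 4 rose without ceg1-AA rapamycin replicate 2 or without ceg1-AA/xrn1D rapamycin replicate 2, and the median was 0.28 without ceg1-AA rapamycin replicate 1. KAR2, the ER Hsp70, was at 169 and 168 CPM in ceg1-AA and 539.6 and 675 CPM in ceg1-AA/xrn1D (1.85 ± 0.18 SE, edgeR adjusted p = 3.96e-05), and ERO1, the thiol oxidase of the ER, rose by 1.17 ± 0.15 (SE). SCJ1, an Hsp40 partner of KAR2, was at 96.2 and 93.4 CPM in ceg1-AA and 30.9 and 36.7 CPM in ceg1-AA/xrn1D and fell (-1.49 ± 0.19 SE).

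Most proteasome genes rose, and none fell past the threshold. Of 34 tested genes of the 26S proteasome, 21 rose (median 0.60), and 13 rose without ceg1-AA rapamycin replicate 2. PRE8, an alpha subunit of the core, was at 85.7 and 92.4 CPM in ceg1-AA and 394 and 381 CPM in ceg1-AA/xrn1D, a log2 fold change of 2.12 ± 0.16 (SE) (edgeR adjusted p = 8.99e-06), above 2-fold in every pair. PRE1 was at 50.5 and 65.6 CPM in ceg1-AA and 137 and 129.7 CPM in ceg1-AA/xrn1D (1.20 ± 0.17 SE) and PRE5 at 65.7 and 55.7 CPM in ceg1-AA and 118 and 150.1 CPM in ceg1-AA/xrn1D (1.14 ± 0.19 SE). RPN4, the transcription factor that binds the PACE element and is itself degraded by the proteasome, was at 138 and 150.1 CPM in ceg1-AA and 299.8 and 283 CPM in ceg1-AA/xrn1D (1.02 ± 0.14 SE, edgeR adjusted p = 0.000219); it was named after its values were seen. Of 28 autophagy genes 10 rose and 3 fell, and the rises numbered 4 with ceg1-AA rapamycin replicate 1 left out and 6 with ceg1-AA rapamycin replicate 2 or ceg1-AA/xrn1D rapamycin replicate 1 left out. The falls were 0 with ceg1-AA rapamycin replicate 1, its replicate 2 or ceg1-AA/xrn1D rapamycin replicate 2 left out and with total counts, and 1 with a replicate block. With all libraries 35.7% of the autophagy genes rose and 10.7% fell, against 21.2% and 22.3% of all nuclear ORFs. ATG7, the E1-like enzyme of autophagosome formation, was at 44.8 and 39.8 CPM in ceg1-AA and 119 and 117 CPM in ceg1-AA/xrn1D (1.48 ± 0.17 SE), and ATG34, a cargo receptor, rose by 1.44 ± 0.26 (SE).

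Many mitochondrial ribosomal protein genes, which are nuclear, rose in the strain whose libraries had lost most mitochondrial transcripts, while the share of respiratory chain genes that rose was near that of all nuclear ORFs. Of 77 mitochondrial ribosomal protein genes 39 rose and 3 fell (median 0.56), and the rises numbered 21 with ceg1-AA rapamycin replicate 2 left out and 25 when ceg1-AA/xrn1D rapamycin replicate 1 was dropped. The falls were 0 with ceg1-AA rapamycin replicate 2 or ceg1-AA/xrn1D rapamycin replicate 2 left out. This list was trimmed after its values were seen, by 17 MRX genes that a text match had taken in; of all 94 genes matched, 47 rose and 4 fell. MRPL6 was at 39.0 and 54.7 CPM in ceg1-AA and 141 and 152 CPM in ceg1-AA/xrn1D (1.65 ± 0.18 SE, edgeR adjusted p = 8.48e-05) and PET123 at 70.5 and 59.6 CPM in ceg1-AA and 195 and 161 CPM in ceg1-AA/xrn1D (1.45 ± 0.16 SE). The retrograde response, in which yeast with damaged mitochondria induces the enzymes that make glutamate precursors, had 6 of 12 genes up and 0 down (median 0.74), and its share of nuclear counts was 0.44% and 0.48% in ceg1-AA and 1.01% and 0.99% in ceg1-AA/xrn1D. IDH2 and IDH1, the subunits of isocitrate dehydrogenase, were at 141 and 127 CPM in ceg1-AA and 552 and 587 CPM in ceg1-AA/xrn1D (2.09 ± 0.15 SE, edgeR adjusted p = 7.34e-06) and at 151 and 126 CPM in ceg1-AA and 546 and 588 CPM in ceg1-AA/xrn1D (2.03 ± 0.17 SE). ACO1, the aconitase before them in the pathway, was at 1236 and 1205 CPM in ceg1-AA and 3670.3 and 4377 CPM in ceg1-AA/xrn1D (1.72 ± 0.18 SE). CIT2, the peroxisomal citrate synthase that is the usual reporter of the response, named here for that reason and outside the naming rule, was at 733 and 964 CPM in ceg1-AA and 1099 and 1049 CPM in ceg1-AA/xrn1D and did not pass (0.34 ± 0.18 SE, edgeR adjusted p = 0.145). Of 37 nuclear genes of the respiratory chain and ATP synthase 10 (27.0%, against 21.2% of all) rose and 1 fell (median 0.25), and the rises numbered 3 with ceg1-AA rapamycin replicate 2 left out and 5 with ceg1-AA/xrn1D rapamycin replicate 1 or 2 left out. The median was 0.51 with ceg1-AA rapamycin replicate 1 left out and 0.09 with its replicate 2 left out, and 2 genes fell with ceg1-AA/xrn1D rapamycin replicate 1 left out. SDH4 (1.65 ± 0.29 SE), CYT1 (1.23 ± 0.21 SE) and SDH3 (1.00 ± 0.18 SE) had the largest rises among those with a mean of at least 50 counts. QCR6, a subunit of the cytochrome bc1 complex, was the fall, at 241 and 213 CPM in ceg1-AA and 56.1 and 45.2 CPM in ceg1-AA/xrn1D (-2.16 ± 0.20 SE, edgeR adjusted p = 3.49e-05). As the mitochondrial transcripts and XRN1 were lost in the same libraries, their parts in these values, and in those of the mitochondrial chaperones above, cannot be told apart.

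The mRNA decay and cap machinery showed no common direction. DHH1, the helicase that represses translation and activates decapping, was at 63.8 and 50.7 CPM in ceg1-AA and 432 and 493 CPM in ceg1-AA/xrn1D, a log2 fold change of 3.01 ± 0.17 (SE) (edgeR adjusted p = 1.09e-06), and it was also high in the ceg1-AA/xrn1D DMSO library, at 462 CPM. EDC1 and EDC2, small enhancers of decapping, were at 31.4 and 18.9 CPM in ceg1-AA and 99.6 and 101 CPM in ceg1-AA/xrn1D (1.99 ± 0.23 SE) and 21.0 and 23.9 CPM in ceg1-AA and 69.0 and 81.9 CPM in ceg1-AA/xrn1D (1.75 ± 0.22 SE), while STM1, a ribosome-bound protein, was at 329 and 381 CPM in ceg1-AA and 139 and 173 CPM in ceg1-AA/xrn1D (-1.19 ± 0.16 SE). Of 16 decapping activators 6 rose and 4 fell. DCS1, the scavenger that breaks down cap remnants, was at 18.1 and 40.7 CPM in ceg1-AA and 172 and 149.5 CPM in ceg1-AA/xrn1D and rose by 2.46 ± 0.30 (SE) (edgeR adjusted p = 0.000158, and 3.15 on the log2 scale without ceg1-AA replicate 2). DCP2, the decapping enzyme, did not pass (0.36 ± 0.14 SE, edgeR adjusted p = 0.0553). Among the 3′ to 5′ exosome and its cofactors 7 of 18 fell and 2 rose (median -0.23, -0.15 without ceg1-AA/xrn1D rapamycin replicate 1 and 0.02 with deposited TPM). These shares were 38.9% and 11.1%, against 22.3% and 21.2% of all nuclear ORFs. The falls numbered 4 without ceg1-AA rapamycin replicate 2, and the number of rises was 0 without any 1 of the 4 rapamycin libraries. MTR4, the nuclear exosome helicase, was at 465 and 502 CPM in ceg1-AA and 158 and 208 CPM in ceg1-AA/xrn1D (-1.40 ± 0.18 SE, edgeR adjusted p = 0.000183) and MPP6, a nuclear cofactor, changed by -1.40 ± 0.19 (SE). UPF3 of nonsense-mediated decay was at 113 and 106 CPM in ceg1-AA and 54.7 and 42.5 CPM in ceg1-AA/xrn1D (-1.18 ± 0.18 SE).

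Transcripts known as substrates of nonsense-mediated decay, which Xrn1 degrades in normal cells, moved in both directions under rapamycin. Their shares, 28.6% risen and 21.4% fallen, were near the 21.2% and 22.3% of all nuclear ORFs. Of 14 tested, 4 rose and 3 fell (median 0.15, -0.07 with ceg1-AA rapamycin replicate 2 left out, 0.04 with ceg1-AA/xrn1D rapamycin replicate 2 left out), and 2 rose without ceg1-AA rapamycin replicate 1. The falls were 1 with ceg1-AA rapamycin replicate 2 or ceg1-AA/xrn1D rapamycin replicate 1 left out and with deposited TPM. In DMSO 12 of the 14 were higher in ceg1-AA/xrn1D than in both ceg1-AA libraries, against 44.2% of all nuclear ORFs. The median difference was 1.00 on the log2 scale. DMSO differences depend on scaling and went with level. Over all nuclear ORFs their median was 0.64 in the lowest of 5 bins of ceg1-AA DMSO level and -0.63 in the highest. No comparison with ORFs of like level was made. From DMSO to rapamycin the strain difference of the 14 changed by a median of -0.84, with 1 ceg1-AA/xrn1D library in DMSO. TEN1, a telomere-capping gene, was at 28.6 and 36.8 CPM in ceg1-AA and 75.2 and 62.6 CPM in ceg1-AA/xrn1D under rapamycin (1.08 ± 0.21 SE, edgeR adjusted p = 0.00207) and at 12.3 and 11.1 CPM in ceg1-AA and 62.8 CPM in ceg1-AA/xrn1D in DMSO. CPA1, of arginine synthesis, was at 197 and 183 CPM in ceg1-AA and 345 and 300.4 CPM in ceg1-AA/xrn1D (0.76 ± 0.14 SE) and at 92.6 and 98.3 CPM in ceg1-AA and 275 CPM in ceg1-AA/xrn1D in DMSO. For both genes the ceg1-AA libraries were higher under rapamycin than in DMSO and were below the ceg1-AA/xrn1D ones. SPT10, a histone gene regulator, fell, from 142 and 146 CPM to 67.9 and 72.4 CPM (-1.04 ± 0.14 SE). Of 160 tested intron-containing ORFs outside the ribosomal protein list, 46 rose and 20 fell (median 0.28), and the rises numbered 30 with ceg1-AA rapamycin replicate 1 left out, 24 with ceg1-AA rapamycin replicate 2 left out, and 29 with ceg1-AA/xrn1D rapamycin replicate 2 left out. The falls numbered 11 with ceg1-AA rapamycin replicate 1 left out, 13 with ceg1-AA rapamycin replicate 2 left out, and 12 with ceg1-AA/xrn1D rapamycin replicate 1 or 2 left out. With all libraries 28.8% of these ORFs rose and 12.5% fell, against 21.2% and 22.3% of all nuclear ORFs. DBP2, a helicase of nuclear RNA, was among the largest of these falls (-1.44 ± 0.20 SE).

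Export and initiation genes moved in both directions. Of 23 mRNA export genes 7 fell (30.4%, against 22.3% of all nuclear ORFs) and 4 rose (17.4% against 21.2%). The balance turned with ceg1-AA/xrn1D rapamycin replicate 1 left out, at 3 falls and 4 rises, and with deposited TPM, at 3 and 6. With ceg1-AA rapamycin replicate 2 left out there were 4 falls and 1 rise, and the rises numbered 1 and 2 when ceg1-AA rapamycin replicate 1 and, in its turn, ceg1-AA/xrn1D rapamycin replicate 2 was left out. GLE1 aside, TEX1 of the TREX complex rose by 1.02 ± 0.21 (SE) and GFD1 changed by -0.81 ± 0.17 (SE). Of 28 genes of cap binding and initiation 9 fell (32.1%, against 22.3% of all) and 3 rose (10.7% against 21.2%). With deposited TPM 6 fell and 5 rose. The rises numbered 0 with ceg1-AA rapamycin replicate 1 or ceg1-AA/xrn1D rapamycin replicate 2 left out and 1 with ceg1-AA rapamycin replicate 2 left out. TIF4631, the eIF4G scaffold, was at 459 and 445 CPM in ceg1-AA and 194 and 226 CPM in ceg1-AA/xrn1D (-1.11 ± 0.16 SE, edgeR adjusted p = 0.000381), FUN12, which joins the subunits, changed by -0.97 ± 0.15 (SE), and TIF3 by -0.96 ± 0.16 (SE). All 3 were lower in both ceg1-AA/xrn1D libraries than in both ceg1-AA libraries, as the naming rule requires. YHR020W, the prolyl-tRNA synthetase gene, was at 808 and 782 CPM in ceg1-AA and 234 and 324 CPM in ceg1-AA/xrn1D (-1.51 ± 0.18 SE). ASC1, the ribosome-bound scaffold that hosts SNR24 in an intron, was at 3707 and 4211 CPM in ceg1-AA and 1534 and 1919 CPM in ceg1-AA/xrn1D (-1.20 ± 0.19 SE).

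Nutrient uptake and metabolism showed large changes of single genes in both directions. In the zinc list, ZRT1 included, 4 of 14 genes fell and 2 rose, with 1 rise when ceg1-AA rapamycin replicate 2 or ceg1-AA/xrn1D rapamycin replicate 2 was left out and with 2 falls and 4 rises in deposited TPM. With all libraries 28.6% of the zinc list fell and 14.3% rose, against 22.3% and 21.2% of all nuclear ORFs. IZH1, another gene of zinc homeostasis, rose by 1.74 ± 0.31 (SE). Of 19 phosphate starvation genes 11 fell and 3 rose (median -0.58). The falls numbered 6 with ceg1-AA rapamycin replicate 1 left out and 7 with ceg1-AA/xrn1D rapamycin replicate 2 left out, and they were 5 with deposited TPM, where the median was -0.27. The rises were 1 when ceg1-AA rapamycin replicate 1 or 2 was left out and 0 with ceg1-AA/xrn1D rapamycin replicate 2 left out. VTC2, of polyphosphate synthesis, was at 821 and 859.6 CPM in ceg1-AA and 238 and 285 CPM in ceg1-AA/xrn1D (-1.68 ± 0.17 SE), PHO89, a phosphate and sodium cotransporter, at 291 and 252 CPM in ceg1-AA and 89.2 and 82.7 CPM in ceg1-AA/xrn1D (-1.66 ± 0.15 SE, edgeR adjusted p = 2.93e-05) and SPL2, which restrains the low-affinity transporters, at 390.4 and 375 CPM in ceg1-AA and 170.2 and 114 CPM in ceg1-AA/xrn1D (-1.43 ± 0.19 SE). FET3 and FTR1, the oxidase and permease of high-affinity iron uptake, changed by -1.28 ± 0.27 (SE) and -1.06 ± 0.21 (SE), and ISU1, the scaffold of iron-sulfur clusters, rose by 1.16 ± 0.16 (SE). IMD2, the inducible enzyme of GMP synthesis, was at 374 and 389.6 CPM in ceg1-AA and 99.8 and 108 CPM in ceg1-AA/xrn1D (-1.88 ± 0.13 SE, edgeR adjusted p = 6.25e-06), BAS1, an activator of purine genes, changed by -1.58 ± 0.20 (SE), and ADE13, of the same pathway, rose by 1.30 ± 0.18 (SE).

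Of 29 genes under nitrogen catabolite repression 5 rose and 7 fell, and 3 fell without ceg1-AA rapamycin replicate 2 or without ceg1-AA/xrn1D rapamycin replicate 2. With all libraries the shares, 17.2% risen and 24.1% fallen, were near the 21.2% and 22.3% of all nuclear ORFs. With deposited TPM 9 rose and 2 fell. CAR1, arginase, which is counted in the arginine list and not in this one, was at 61.9 and 82.5 CPM in ceg1-AA and 307 and 311 CPM in ceg1-AA/xrn1D (2.10 ± 0.16 SE, edgeR adjusted p = 1.08e-05). Of the nitrogen list, PUT2 and PUT1, which oxidise proline in mitochondria, were at 70.5 and 51.7 CPM in ceg1-AA and 263 and 204 CPM in ceg1-AA/xrn1D (1.93 ± 0.21 SE) and 93.3 and 85.5 CPM in ceg1-AA and 276 and 165 CPM in ceg1-AA/xrn1D (1.30 ± 0.25 SE). DUR3, the urea transporter, rose by 1.24 ± 0.18 (SE). DAL80, a repressor of nitrogen genes, changed by -1.55 ± 0.28 (SE), and the ammonium permease gene MEP1 was at 314 and 368 CPM in ceg1-AA and 122 and 170.4 CPM in ceg1-AA/xrn1D (-1.22 ± 0.21 SE). MET31, an activator of sulfur genes, was at 98.1 and 81.5 CPM in ceg1-AA and 28.3 and 22.2 CPM in ceg1-AA/xrn1D (-1.83 ± 0.20 SE, edgeR adjusted p = 7.49e-05). In carbon metabolism MDH2, the cytosolic malate dehydrogenase of gluconeogenesis, was at 40.9 and 44.7 CPM in ceg1-AA and 183 and 194 CPM in ceg1-AA/xrn1D (2.14 ± 0.16 SE, edgeR adjusted p = 7.34e-06), ADR1, an activator of genes for ethanol use, at 88.6 and 73.5 CPM in ceg1-AA and 303 and 258 CPM in ceg1-AA/xrn1D (1.79 ± 0.17 SE) and ALD6, which makes acetate, at 85.7 and 69.6 CPM in ceg1-AA and 269 and 345 CPM in ceg1-AA/xrn1D (1.98 ± 0.25 SE). In DMSO ceg1-AA/xrn1D had like levels of the former pair, 182 CPM of MDH2 and 296 CPM of ADR1. HXT1, the low-affinity glucose transporter, was at 188 and 103 CPM in ceg1-AA and 516 and 459.7 CPM in ceg1-AA/xrn1D (1.74 ± 0.26 SE), HXT5, which is used in slow growth, rose by 1.89 ± 0.36 (SE), and PYK2, the minor pyruvate kinase, by 1.93 ± 0.28 (SE). OLE1, the fatty acid desaturase, was at 280.0 and 320.0 CPM in ceg1-AA and 795 and 791 CPM in ceg1-AA/xrn1D (1.40 ± 0.17 SE). In ergosterol synthesis ERG25 rose by 1.14 ± 0.20 (SE) and ERG8, of the mevalonate branch, changed by -1.26 ± 0.16 (SE).

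Of 24 genes of G2/M and mitotic exit 6 rose and 4 fell, and the falls numbered 2 with ceg1-AA rapamycin replicate 2 or ceg1-AA/xrn1D rapamycin replicate 1 or 2 left out. CTS1, the chitinase that separates mother and daughter, was at 196 and 176 CPM in ceg1-AA and 626 and 585 CPM in ceg1-AA/xrn1D (1.70 ± 0.18 SE, edgeR adjusted p = 7.05e-05) and EGT2, another separation gene, at 201 and 149 CPM in ceg1-AA and 489 and 508 CPM in ceg1-AA/xrn1D (1.51 ± 0.17 SE). CLB4, a mitotic cyclin, was at 68.6 and 61.6 CPM in ceg1-AA and 27.5 and 28.3 CPM in ceg1-AA/xrn1D and fell (-1.22 ± 0.20 SE). Of 34 genes of the G1/S program and replication 6 rose and 3 fell, and the falls numbered 0 with ceg1-AA rapamycin replicate 1 or 2 or ceg1-AA/xrn1D rapamycin replicate 1 left out and 5 with ceg1-AA/xrn1D rapamycin replicate 2 left out. With all libraries 17.6% of this G1/S list rose and 8.82% fell, against 21.2% and 22.3% of all nuclear ORFs. SWI4, a G1/S transcription factor, and RFA1, a subunit of replication protein A, rose by 1.06 ± 0.19 (SE) and 1.06 ± 0.18 (SE). Of 4 alpha-specific genes 2 rose, STE3 by 0.86 ± 0.18 (SE) among them. ADE2, one of the marker genes checked, was at 194 and 178 CPM in ceg1-AA and 386 and 392 CPM in ceg1-AA/xrn1D (1.06 ± 0.13 SE) and URA3 at 84.8 and 83.5 CPM in ceg1-AA and 50.5 and 52.8 CPM in ceg1-AA/xrn1D (-0.70 ± 0.16 SE). The low-count gene SPO24, of meiotic cells, had 3 counts in the ceg1-AA rapamycin libraries together and 127 in the ceg1-AA/xrn1D ones, a ratio of 11.8 after scaling (exact 95% interval 3.96 to 58.2, counting error only). Its fitted change of 3.52 ± 0.60 (SE) was 4.11 with ceg1-AA rapamycin replicate 2 left out.

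Much of the difference under rapamycin was already present in DMSO, as far as a single ceg1-AA/xrn1D DMSO library can show. Of the 1244 higher ORFs 788 (63.3%) were also higher in that library than in both ceg1-AA DMSO libraries, against 44.2% of all 5859, and 277 (22.3%) were lower. Of the 1304 lower ORFs 945 (72.5%) were also lower in DMSO, against 39.4% of all. Across the 5859 ORFs the 2 strain differences, which share no library but come from the same strains, had a Pearson correlation of 0.51 and a Spearman correlation of 0.46. NCE103 was one gene with a like difference in both conditions, at 58.2 and 39.5 CPM in ceg1-AA and 694 CPM in ceg1-AA/xrn1D in DMSO, and CRR1 another, at 53.3 and 51.7 CPM in ceg1-AA and 5.63 CPM in ceg1-AA/xrn1D in DMSO. The processome and 60S lists were lower in DMSO too, by medians of -0.78 and -0.89. These medians depend on scaling, as the DMSO TMM factors were 0.754 and 0.764 in ceg1-AA and 1.107 in ceg1-AA/xrn1D. By share of nuclear counts in DMSO the processome genes took 1.39% and 1.23% in ceg1-AA and 1.09% in ceg1-AA/xrn1D. The 60S factors took 1.53% and 1.38% against 1.13%.

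For other genes the strain difference depended on the treatment. An interaction of strain and treatment passed for 1265 of the 5859 ORFs (21.6%; 2185 at an unadjusted p under 0.05), 697 with a more positive strain difference under rapamycin and 568 with a more negative one. The lone ceg1-AA/xrn1D DMSO library is assumed to vary like the other groups. Total-count scaling shifted the median interaction from -0.10 to -0.55 and gave 316 positive and 1776 negative ones. The number was 624 and 549 without ceg1-AA rapamycin replicates 1 and 2, and 755 and 606 without ceg1-AA/xrn1D rapamycin replicates 1 and 2. Of the 2548 ORFs called under rapamycin 729 (28.6%) had an interaction. SSA2 was at 2748 and 2406 CPM in ceg1-AA and 1662 CPM in ceg1-AA/xrn1D in DMSO, and its values under rapamycin, given above, were far below these in ceg1-AA and nearer to them in ceg1-AA/xrn1D. Its strain difference changed by 3.15 ± 0.30 SE on the log2 scale between the conditions (edgeR adjusted p = 0.000989). Of the 25 genes of the Hsp70 and Hsp90 list 16 had a positive and 1 a negative interaction. In the redox list 15 were positive and 1 negative, and in the mitochondrial chaperone list 6 and 0. ZRT1 was the reverse case, at 74.6 and 129.7 CPM in ceg1-AA and 84.1 CPM in ceg1-AA/xrn1D in DMSO, and higher than these values under rapamycin in ceg1-AA alone (interaction -2.40 ± 0.37 SE, edgeR adjusted p = 0.00389). GLE1 (interaction -1.79 ± 0.22 SE), PHO89 (-1.85 ± 0.25 SE) and SPL2 (-1.79 ± 0.31 SE) had the same form, with DMSO levels of GLE1 at 97.5 and 88.2 CPM in ceg1-AA and 58.1 CPM in ceg1-AA/xrn1D.

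With TMM scaling, the median strain difference of cytosolic ribosomal protein genes was larger in DMSO than under rapamycin. In DMSO 128 of 135 were lower in ceg1-AA/xrn1D than in both ceg1-AA libraries, with a median of -1.25, against -0.52 under rapamycin. By share of nuclear counts they took 16.9% and 16.8% in ceg1-AA and 10.2% in ceg1-AA/xrn1D in DMSO. Under rapamycin these shares were 12.9% and 13.6% in ceg1-AA and 8.12% and 9.55% in ceg1-AA/xrn1D. The interaction was positive for 49 and negative for 2, but with total counts for 19 and 7, and it was positive for 13, 10 and 24 when ceg1-AA rapamycin replicate 1, its replicate 2 or ceg1-AA/xrn1D rapamycin replicate 2 was left out. The glycolysis list had a median of -0.99 in DMSO and 0.27 under rapamycin. Its share of nuclear counts in DMSO was 9.90% and 11.9% in ceg1-AA and 6.42% in ceg1-AA/xrn1D.

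**Figure D4:**
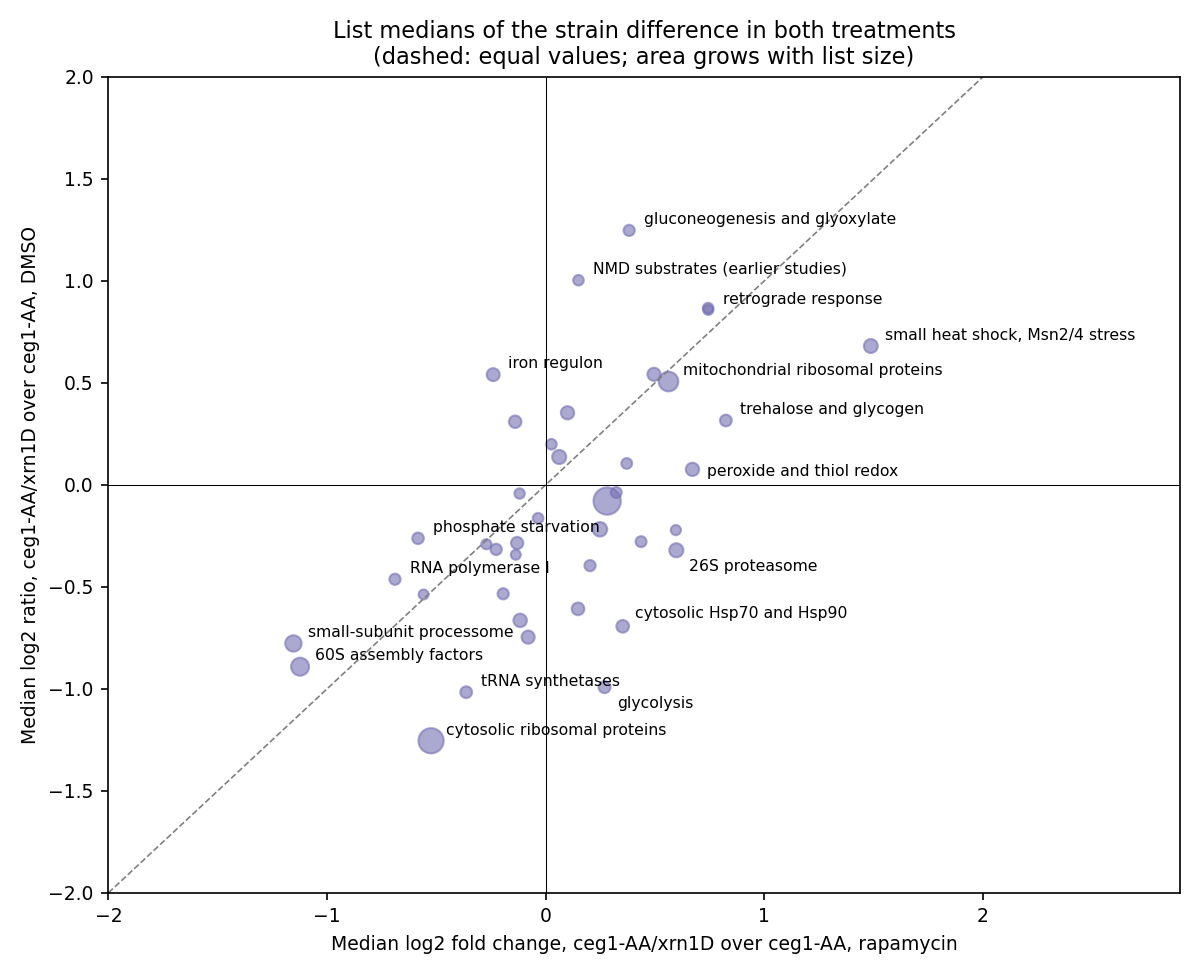
Median log2 strain difference (ceg1-AA/xrn1D over ceg1-AA) of each gene list under rapamycin (horizontal, 2 libraries against 2) and in DMSO (vertical, 1 library against 2), 1 point per list with area growing with list size and the dashed line at equal values. Processome and 60S lists are low on both axes, ribosomal proteins lie at -0.52 under rapamycin and -1.25 in DMSO, and the proteasome and Hsp70 lists are above 0 under rapamycin and below 0 in DMSO. The DMSO values depend on TMM scaling. By share of nuclear counts in DMSO the proteasome was at 0.80% and 0.77% in ceg1-AA and 0.96% in ceg1-AA/xrn1D.

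Promoter elements went with direction of change. Of 5486 promoters searched on both strands, 1281 (23.4%) held AGGGG, and 28.8% of those genes rose and 15.2% fell, against 21.9% and 22.4% of all 5486. With 2 or more copies, 211 promoters, 34.6% rose and 11.4% fell. Of these 211, 13 belong to the stress list and 8 to the trehalose and glycogen list, so the shares are not separate from those results. AGGGG promoters outside these lists were not counted. The element was in 25 of the 33 promoters of the stress list and in 16 of 20 for trehalose and glycogen, and HSP12 and AHP1 each have 2 copies, shown above. PAC and RRPE, the paired elements of ribosome assembly genes, occurred together in 219 promoters (3.99%), of which 6 rose and 143 (65.3%) fell, with a median of -0.85. Outside the processome and 60S lists there were 152 such promoters, of which 5 rose and 83 (54.6%) fell. PAC was in 45 of the 50 processome and 55 of the 63 60S promoters, and DRS1 and RRP14 hold both elements. GGTGGCAAA was in 71 promoters (1.29%), of which 33 (46.5%) rose and 10 fell, and in 27 of the 34 proteasome promoters, with that of PRE5 among those that do not hold these letters in the window. These 27 are among the 71, so the share that rose is not separate from the proteasome result. Shares outside that list were not counted. The heat shock element, searched with the spacing given above, was in 58 promoters (1.06%), of which 21 rose and 13 fell. The letters CACGTG of the phosphate regulator Pho4 (224 promoters) and GATAAG of the nitrogen regulators (798 promoters) were near the overall shares, with 20.5% and 22.8% of their genes higher and 22.3% and 22.2% lower. A match describes letters in a window and does not show that a factor binds there.

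**Figure D5:**
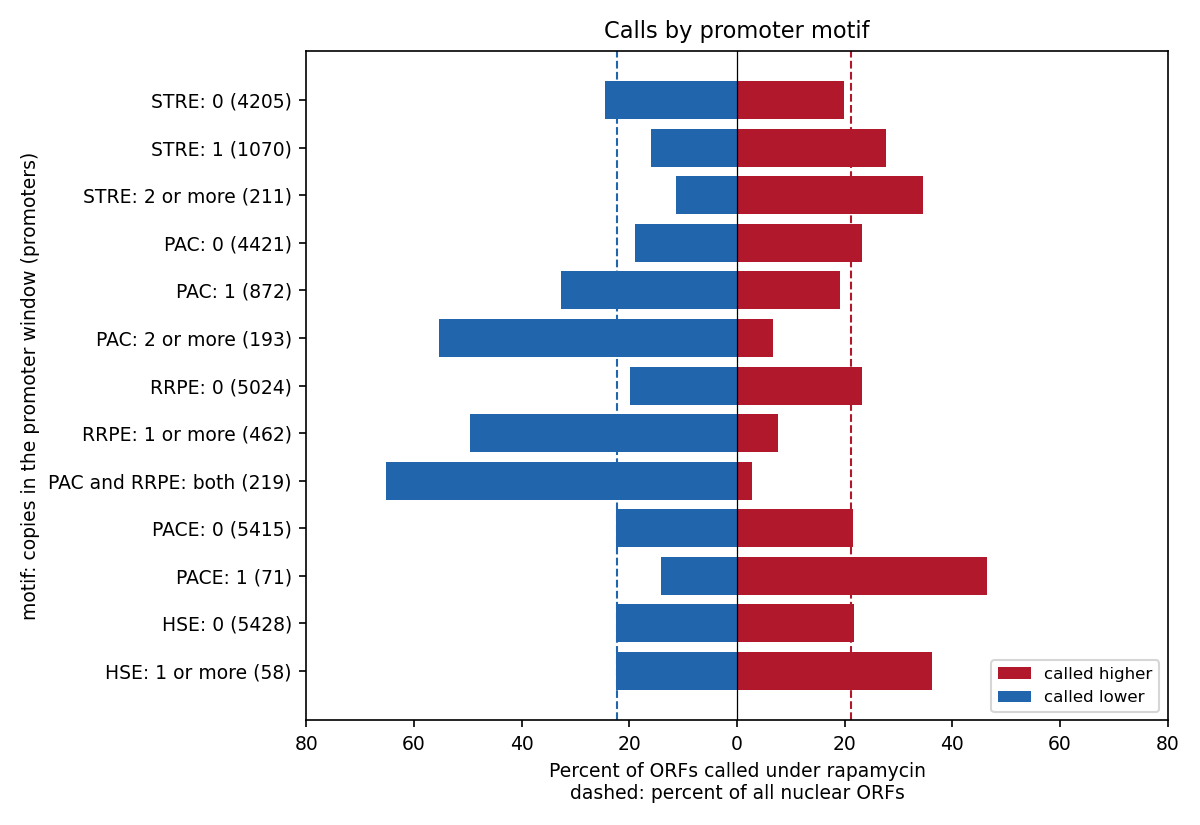
Percent of ORFs called lower (left, blue) or higher (right, red) in ceg1-AA/xrn1D under rapamycin by the number of copies of each element in the promoter window, with the number of promoters in brackets and dashed lines at the percent of all nuclear ORFs called. Promoters with both PAC and RRPE have the largest lower share of the classes drawn, 65.3%, and those with PACE the largest higher share, 46.5%. Of the 71 PACE promoters, 27 belong to proteasome genes.

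The fold change was also set against length, level and position. Across genes its Spearman correlation was -0.10 with the level in ceg1-AA DMSO, -0.12 with coding length and 0.05 with GC content. In the longest of 5 equal bins of ORFs, 2067 to 14733 bases, 13.8% rose and 30.6% fell (median -0.15), and in the shortest bin, 114 to 576 bases, 20.2% rose and 18.6% fell. Median fold changes per chromosome ran from -0.10 on chromosome XII to 0.14 on chromosome V. Of 373 tested ORFs that the reference does not name, 40 rose and 74 fell, and the rises numbered 22 with ceg1-AA rapamycin replicate 1 left out, 13 with ceg1-AA rapamycin replicate 2 left out, and 20 with ceg1-AA/xrn1D rapamycin replicate 1 or 2 left out.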

How the data were processed

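Tables of read counts and of TPM per ORF were deposited by the authors, 1 table per library. Per the submitters' processing notes, the tools were FastQC 0.11.5, HISAT2 2.1.1, SAMtools 1.15.1 and DESeq2, with builds R64 and sacCer3; the counting program, strand setting and filters are not given in the sources used here. Here, deposited counts were fitted with edgeR 4.0.16 (R 4.3.3; TMM scaling, filterByExpr, quasi-likelihood test) over 7 libraries and 4 groups, with Benjamini-Hochberg adjustment over 5879 features, 20 of them mitochondrial. The interaction used the same fit. CPM values are TMM scaled, and log2 ratios of pairs used a prior count of 2. Named genes are the 10 largest rises and falls with a mean of at least 50 counts and 1 sign in all pairs, up to 3 of each per list with the member of highest mean count, genes of the genotype, mating and capping lists, and ORFs at the floor of 3 counts in 1 strain; exceptions are marked. Members and lists were chosen with earlier results of these data known. Deposited TPM values were used only in an alternative, limma 3.58.1 on log2(TPM + 1). Other alternatives were DESeq2 1.42.0, other scalings and filters, a replicate block and leaving out each library. On simulated data for this comparison (5741 ORFs tested), 158 of 199 ORFs changed 2-fold were called, with 13 false calls. Same-numbered replicates showed little shared deviation. The reference held 5917 of the 6600 identifiers. Intervals cover counting error only.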

Additional observations from a re-analysis of the deposited data

Results flagged for a closer look

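Some genes with printed values had a strain difference that itself differed between rapamycin and DMSO, by the interaction in the edgeR fit at an adjusted p under 0.05. The values are the log2 strain difference (ceg1-AA/xrn1D over ceg1-AA) under rapamycin minus that in DMSO, and each rests on a single ceg1-AA/xrn1D DMSO library that is assumed to vary like the other groups. The difference was more positive under rapamycin by 3.59 for YAL004W, 3.21 for SSA1, 3.15 for SSA2, 2.93 for HSC82, 2.69 for KAR2, 2.62 for AHP1, 2.51 for ALD6 and 2.34 for HSP78. The next values were 2.31 for HSP10, 2.24 for OLE1, 2.14 for HSP60, 2.04 for HSP82, 1.88 for SOD1, 1.86 for CYC7, 1.82 for GRE3 and 1.76 for CTS1. Next in size came 1.74 for CWP1, 1.71 for SDH4, 1.70 for DCS1, 1.65 for PRE8, 1.52 for PRE1, 1.52 for PIR1, 1.48 for UGP1 and 1.42 for ERG25. Smaller positive values were 1.39 for PUT2, 1.39 for ADE13, 1.33 for TRX3, 1.26 for SDH3, 1.15 for RFA1, 1.14 for RPL36A, 1.12 for RPS27A and 1.11 for DHH1. The smallest positive values were 1.09 for ERO1, 1.06 for PRE5, 0.95 for STE3, 0.86 for MRPL6, 0.86 for PET123, 0.82 for TIF3, 0.79 for IDH2 and 0.76 for CAR1. It was more negative under rapamycin by -2.40 for ZRT1, -1.85 for PHO89, -1.79 for GLE1, -1.79 for SPL2, -1.47 for RRN9, -1.42 for RRP14, -1.33 for TEN1 and -1.27 for RRN11. Smaller negative values were -1.18 for MET31, -1.14 for IMD2, -1.13 for UTP25, -1.10 for CLB4, -1.10 for RPC82, -1.08 for ISU1, -0.98 for DUR3 and -0.95 for SPT10. The negative values nearest 0 were -0.94 for ADE2, -0.93 for REI1, -0.87 for FYV7, -0.83 for ERG8, -0.76 for CPA1 and -0.76 for DRS1. Of these 62 interactions, 15 no longer passed with total counts and 15 with a replicate block, and 23 and 27 when ceg1-AA rapamycin replicate 1 or 2, in that order, was left out. Leaving out ceg1-AA/xrn1D rapamycin replicate 1 or 2 lost 21 and 24. None of them changed sign in any setting, though they were listed because they passed in the main fit.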

How the results depend on the processing

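Leaving out 1 of the 4 rapamycin libraries gave 721 to 837 higher ORFs, 856 to 951 lower ORFs and 372 to 486 ORFs at least 2-fold higher in every remaining pair, the last being 486 without ceg1-AA replicate 1. Deposited TPM tested with limma gave 662 lower ORFs. The number of interactions was 2092 with total counts and ran from 549 to 1576 when 1 library was left out, highest without ceg1-AA DMSO replicate 2; these fits leave single libraries in a group, which are assumed to vary like the others. Same-numbered replicates showed little shared deviation, with correlations across genes of 0.131, -0.149 and -0.027, which cannot settle whether they were paired. A replicate block gave 1172 higher, 1241 lower and 925 interactions. DESeq2 called 875 higher and 1001 lower, and the edgeR fit of the 4 rapamycin libraries alone 1468 and 1479. Of 136 called genes with printed values, 131 passed in all 14 settings, and no called one changed sign. Most of these genes were named for a large called change with 1 sign in all pairs. Their calls therefore do not stand for those of all ORFs. The shallower ceg1-AA rapamycin libraries limit what can be seen of low transcripts.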

Other observations

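Counts of further lists follow, to be read beside the 21.2% of all nuclear ORFs that rose and the 22.3% that fell. Of 14 hexose transporter and sensor genes 6 rose and 0 fell (median 0.74), and of 15 arginine synthesis genes 6 rose and 4 fell, the falls being 2 with ceg1-AA/xrn1D rapamycin replicate 1 left out. Not every gene of the arginine list makes arginine, and CAR1, arginase, was one of its rises. Of 11 histone genes 3 fell and 0 rose, with HTA1, an H2A gene, at 659 and 611 CPM in ceg1-AA and 384 and 399 CPM in ceg1-AA/xrn1D (-0.70 ± 0.15 SE, edgeR adjusted p = 0.00416). The histone falls numbered 2 when ceg1-AA rapamycin replicate 1 or 2 or ceg1-AA/xrn1D rapamycin replicate 1 was left out. Of 14 deadenylation genes 3 rose and 1 fell, the rises being 1 with ceg1-AA rapamycin replicate 1 or ceg1-AA/xrn1D rapamycin replicate 1 left out and 0 with ceg1-AA rapamycin replicate 2 left out. Of 20 tRNA synthetase genes 6 fell and 1 rose, and the falls numbered 2 with ceg1-AA rapamycin replicate 1 or 2 left out and 1 with ceg1-AA/xrn1D rapamycin replicate 1 left out. The rise was lost with ceg1-AA rapamycin replicate 1, its replicate 2 or ceg1-AA/xrn1D rapamycin replicate 2 left out, and deposited TPM gave 4 rises and 1 fall. Of 13 genes of capping and 5′ to 3′ decay 5 rose and 5 fell. The rises numbered 2 with ceg1-AA rapamycin replicate 1 or ceg1-AA/xrn1D rapamycin replicate 1 or 2 left out and 1 with ceg1-AA rapamycin replicate 2 left out, and the falls 2 with ceg1-AA rapamycin replicate 1 or ceg1-AA/xrn1D rapamycin replicate 2 left out and 1 with ceg1-AA rapamycin replicate 2 or ceg1-AA/xrn1D rapamycin replicate 1 left out. Deposited TPM gave 5 rises and 1 fall. CET1, the capping enzyme's triphosphatase subunit, was at 52.4 and 49.7 CPM in ceg1-AA and 77.1 and 71.9 CPM in ceg1-AA/xrn1D (0.54 ± 0.17 SE, edgeR adjusted p = 0.0224), and it lost its call, at 0.49 to 0.59, with any 1 of the 4 rapamycin libraries left out and at 0.54 in DESeq2. Of the 12 tested genes of the genotype list, XRN1 included, 1 rose and 2 fell, and of 4 tested a-specific genes 1 rose. These rises were 2 with ceg1-AA/xrn1D rapamycin replicate 1 left out and 0 with ceg1-AA rapamycin replicate 2 left out, in that order. Of 27 iron regulon genes 7 rose and 5 fell; the rises numbered 3 with ceg1-AA rapamycin replicate 1 or ceg1-AA/xrn1D rapamycin replicate 2 left out and 4 with ceg1-AA rapamycin replicate 2 left out, and the falls 3 with ceg1-AA rapamycin replicate 1 or 2 or ceg1-AA/xrn1D rapamycin replicate 1 left out. Of 25 ergosterol genes 8 rose and 4 fell, and the rises numbered 3 with ceg1-AA rapamycin replicate 1 or ceg1-AA/xrn1D rapamycin replicate 2 left out. The falls numbered 2 with ceg1-AA rapamycin replicate 1 or ceg1-AA/xrn1D rapamycin replicate 1 left out and 1 with ceg1-AA rapamycin replicate 2 left out. Of 17 purine genes 6 rose and 4 fell, the rises being 3 with ceg1-AA rapamycin replicate 1 or ceg1-AA/xrn1D rapamycin replicate 2 left out. In the gluconeogenesis list 5 of 17 rose and 3 fell, the falls being 1 with ceg1-AA rapamycin replicate 2 left out. Of 21 glycolysis genes 4 rose and 0 fell, and the rises numbered 2 with ceg1-AA rapamycin replicate 1 or 2 left out, against 11 with deposited TPM; 1 gene fell with ceg1-AA/xrn1D rapamycin replicate 2 left out. The list meant for Ty retrotransposon ORFs is not reported, since its text match found 1 gene, which is no Ty gene.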
